A study of Mus musculus with 4 samples.

Results

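The 8 genes described here are H2-Aa, H2-Ab1, H2-Eb1, Cd74, H2-DMa, H2-DMb1, H2-DMb2 and Ciita, which encode mouse MHC class II chains, helpers of class II loading and the master regulator of the class II genes. They were chosen by name, with earlier results of these data known, and make up 8 of the 30408 genes listed in any of the 4 libraries. Each of the 8 was listed in all 4. The study measured single cells from MB49 tumours, grown from a bladder carcinoma line that was derived from a male mouse. Tumours had been taken from male and from female hosts and dissociated with enzymes, and live CD45+ and CD45- cells had been sorted from each, which gives 4 groups of 1 library: male CD45+, female CD45+, male CD45- and female CD45-. The labels used here name no treatment, genotype, strain or age for any group and do not say how many animals were pooled. With 1 library a group there was no test of the male-female difference, and the host's sex cannot be told apart from any other difference between 2 libraries. Intervals below are 95% intervals that cover counting error only.

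MHC class II molecules carry peptides from engulfed material to the cell surface, where CD4 T cells read them. H2-Aa and H2-Ab1 encode the alpha and beta chains of I-A, and H2-Eb1 encodes the beta chain of I-E. Cd74, the invariant chain, occupies the groove until the DM heterodimer, built from H2-DMa and either H2-DMb1 or H2-DMb2, exchanges its remnant for peptide. Ciita does not bind DNA by itself. It is recruited to the X and Y boxes of class II promoters by the RFX and NF-Y complexes, and its own gene is switched on constitutively in dendritic cells and by interferon-gamma in many other cells.

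The promoters are shown because the levels of most members went together across cell types, H2-DMb1 and Ciita least closely. Any link between these sequences and the levels was not tested. RefSeq (GRCm38.p6) promoter windows were given for 5 of the 8 members. The 4 shown span 60 bases on chromosome 17, at chr17:34287862-34287921 on the minus strand for H2-Aa, chr17:34305758-34305817 on the plus strand for H2-Eb1, chr17:34153080-34153139 on the plus strand for H2-DMb1 and chr17:34145109-34145168 on the plus strand for H2-DMb2. Capitals mark the Y box core ATTGG, the X box core AACNGATG and, in H2-Aa, the cyclic-AMP-type element TGACGTCA.
H2-Aa: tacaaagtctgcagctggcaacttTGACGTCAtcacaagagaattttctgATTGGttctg
H2-Eb1: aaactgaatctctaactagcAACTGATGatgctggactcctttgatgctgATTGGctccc
H2-DMb1: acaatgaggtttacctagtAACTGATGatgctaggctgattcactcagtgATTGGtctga
H2-DMb2: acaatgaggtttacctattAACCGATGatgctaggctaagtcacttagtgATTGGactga
The Y box core began 48, 59, 61 and 90 bases before the annotated start of H2-Aa, H2-Eb1, H2-DMb1 and H2-DMb2. The X core began 30 bases upstream of the Y core in H2-Eb1 and 31 bases upstream of it in both DM beta genes, while in H2-Aa the element TGACGTCA began 26 bases upstream of the Y core. On either strand, ATTGG was present in 37.4% of 32851 promoters of this length, AACNGATG in 2.32% and TGACGTCA in 1.79%. The ordered pair AACNGATG and ATTGG at a spacing of 28 to 33 bases was present in 5 promoters, those of H2-Eb1, H2-DMb1, H2-DMb2, H2-Eb2 and BC051142. The windows of H2-DMb1 and H2-DMb2 were identical at 54 of 60 positions. H2-DMa, which has 2 annotated starts, had neither the X core nor TGACGTCA in its windows, and ATTGG began 198 bases before its second start. These are letter matches, not measured binding.

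The 4 libraries held 22115 cells, of which 19375 passed the limits on UMIs, genes and mitochondrial share, with medians of 5980 to 10598 UMIs per kept cell. Marker genes, none of them among the 8, assigned 16798 cells to a type, 638 met several gates and were left out as possible doublets, and 1939 met none. In the CD45+ libraries 2140 male and 2677 female cells were macrophages, and in the CD45- libraries 4932 male and 3555 female cells were keratin-expressing carcinoma cells. The macrophage gate is a cut through a range, with 134 male and 327 female macrophages within 1.5-fold of it. Ptprc, which encodes CD45, was at 742 and 648 counts per 1000000 UMIs (CPM) in the male and female CD45+ libraries, and the CD45- libraries had 1.79 and 1.35 CPM. Cells are named by number only, so barcodes shared between libraries could not be counted.

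Among the types plotted by gene, the 8 genes together were highest in type 2 and type 1 dendritic cells, followed by macrophages, and were lowest in fibroblasts. Types of a few cells, such as B cells, pericytes and endothelial cells, were left out of this order. Their summed level in type 2 dendritic cells, gated on Cd209a, was 62255 CPM in the male library (255 cells) and 60904 CPM in the female library (128 cells). Type 1 dendritic cells, gated on Xcr1 or Clec9a, had 55322 CPM (183 male cells) and 56514 CPM (15 female cells). Macrophages had 43387 and 36200 CPM. Mature dendritic cells, which express Ccr7 and Fscn1, had 21249 CPM (132 male cells) and 25919 CPM (60 female cells). The order type 2 over type 1 over macrophage over mature dendritic cell was the same in both hosts, and each step was wider than the counting intervals.

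Cells outside these presenting types had much lower levels. In the CD45+ libraries neutrophils had 5482 and 6746 CPM and CD8 T cells 2858 and 6429 CPM (male and female). In the CD45- libraries carcinoma cells had 1381 CPM (interval 1372 to 1391) in male hosts and 747 CPM (739 to 755) in female hosts. Fibroblasts had 202 CPM (36 UMIs in 20 male cells) and 252 CPM (143 UMIs in 55 female cells). H2-DMb2 and Ciita had no UMI in fibroblasts of either library, where 3 UMIs would have given 16.9 and 5.28 CPM.

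**Figure D1:**
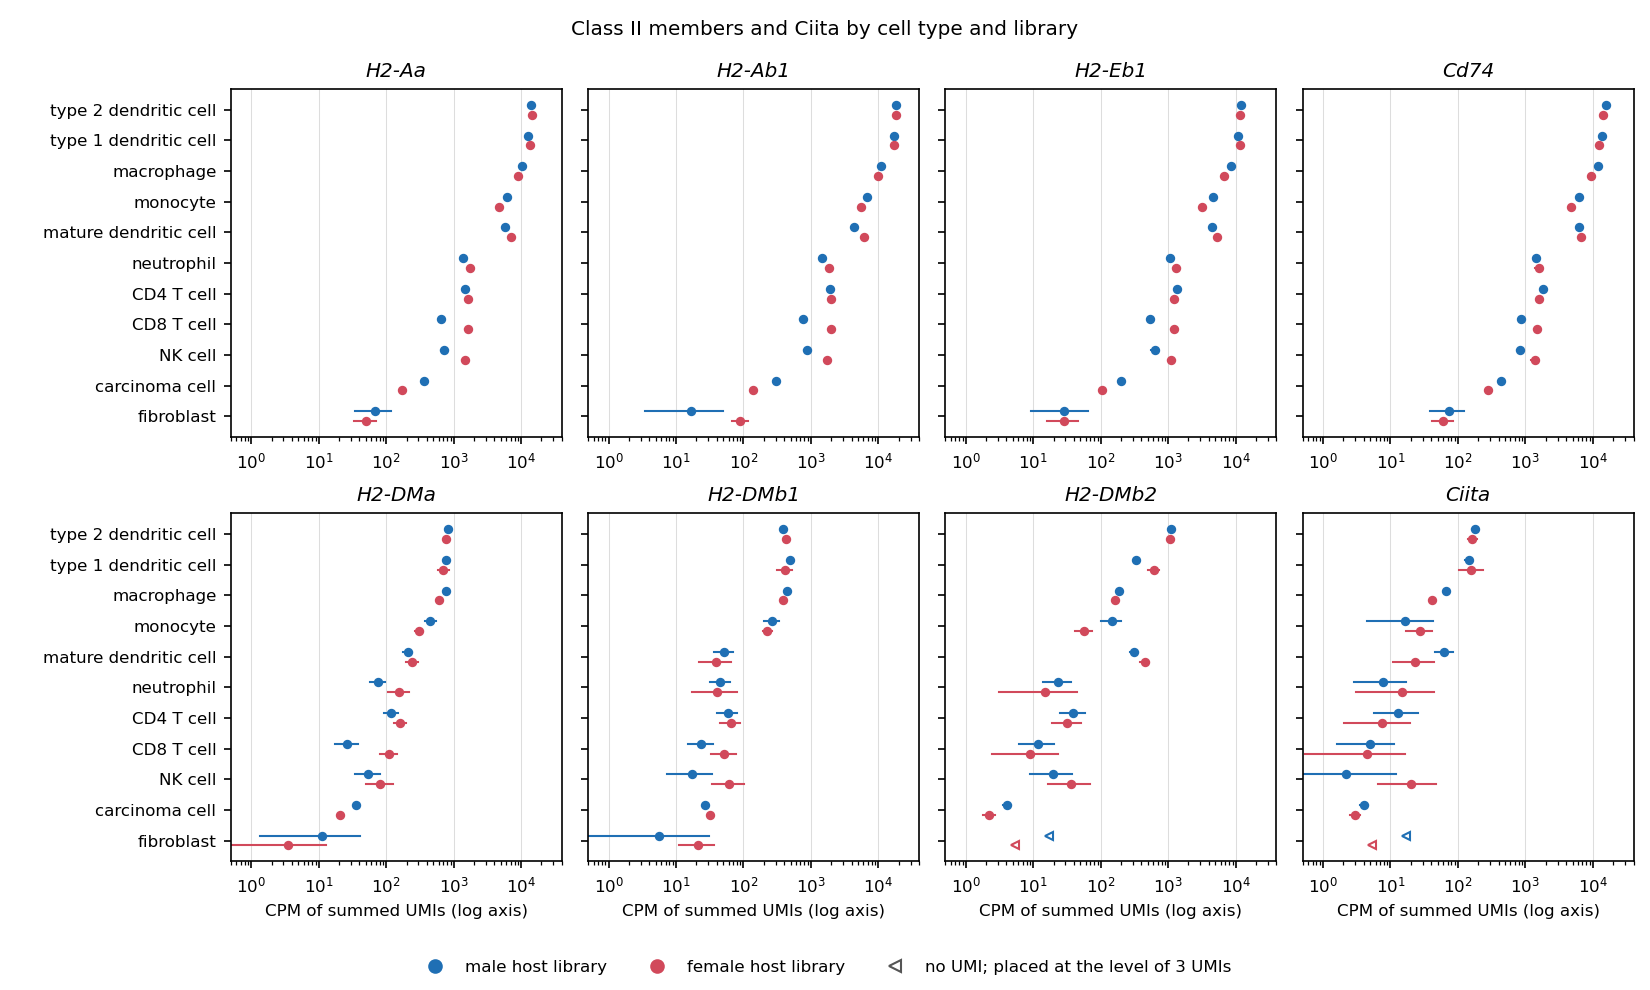
CPM of summed UMIs of each of the 8 genes (log axis) by marker-gated cell type, in blue for male and red for female host libraries; lines are exact Poisson intervals of 95% for counting error, cut at the left edge, and open triangles mark types without a UMI. All 8 panels place type 1 and type 2 dendritic cells and macrophages above T cells, and carcinoma cells lie below T cells for H2-Aa, H2-Ab1, H2-Eb1 and Cd74.

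Mouse T cells are not known to make MHC class II, so their level was taken as the free RNA, with any mixed cells, that each CD45+ library carried. Of male CD8 T cells 98.3% and of female CD8 T cells 100% had at least 1 class II UMI, with medians of 2153 and 2714 UMIs per cell. After every cell was thinned to 1000 UMIs the shares were 88.6% and 100%, against 99.7% and 99.9% of macrophages. A class II UMI in a cell of these libraries is therefore no sign of expression, and levels were read against T cells. C1q, the complement genes that mark macrophages, was at 505 CPM in male and 1104 CPM in female CD8 T cells. The female library carried more of both: its CD8 T cells had 2.25 times the class II and 2.19 times the C1q level of the male library's.

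Against that background all 8 genes were higher in macrophages. At a 2-fold limit 8 of 8 were called in each host's library, where 20.3% (male) and 21.5% (female) of tested genes were called in that direction. The summed level was 15.2 times that of CD8 T cells in the male library (14.6 to 15.7) and 5.63 times in the female library (5.43 to 5.84). Ciita, with the fewest UMIs of the 8, was at 65.8 CPM in male and 40.7 CPM in female macrophages. The same gene had 5 and 2 UMIs in all male and all female CD8 T cells, or 4.90 and 4.54 CPM.

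Type 2 dendritic cells had more of the classical chains than macrophages, and the ratios were largest for H2-DMb2 and Ciita. Between type 2 dendritic cells and macrophages, 2 of 8 members were at least 2-fold higher in dendritic cells in both libraries, and 5.95% (male) and 5.26% (female) of tested genes were. H2-DMb2, a DM beta chain, was at 1099 CPM in male and 1055 CPM in female type 2 dendritic cells, which was 5.96 times (5.66 to 6.27) and 6.53 times (6.10 to 6.98) its macrophage level. Ciita was at 181 and 162 CPM there, 2.76 times (2.45 to 3.09) and 3.98 times (3.36 to 4.70) its macrophage level. The 3 classical chains and Cd74 were 1.29 to 1.66 times as high as in macrophages in the male library and 1.49 to 1.83 times in the female library. H2-DMb1, the other DM beta chain, differed little, at 387 and 434 CPM in type 2 dendritic cells against 445 and 381 CPM in macrophages. Beside this, the median type 2 dendritic cell held 30.2 (male) and 17.2 (female) UMIs of neutrophil markers per 10000, more than any other dendritic gate, and whether the gate took in other myeloid cells was not tested.

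Type 1 dendritic cells, specialised in presenting engulfed antigen to CD8 T cells, also had more Ciita than macrophages, with 144 and 158 CPM. Beyond 2-fold this was 1 of 8 members in the male library (Ciita, beside 8.11% of tested genes) and 2 of 8 in the female library (Ciita and H2-DMb2, beside 11.7%). H2-DMb2 was at 336 CPM in male and 609 CPM in female type 1 dendritic cells, so it lay between macrophages and type 2 dendritic cells in both libraries. The female values rest on 15 cells, with 100 UMIs of H2-DMb2 and 26 of Ciita.

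Mature dendritic cells, the migratory state that has taken up and is displaying antigen, had lower RNA of every member than type 2 dendritic cells. All 8 members were at least 2-fold lower in both libraries, where 16.9% (male) and 16% (female) of tested genes were called in that direction. H2-DMb1 differed most, with 51.1 CPM in male and 39.0 CPM in female mature cells, which was 7.57-fold (5.49 to 10.7) and 11.1-fold (6.66 to 20.02) lower. CD8 T cells had 23.5 (male) and 52.2 CPM (female) of H2-DMb1, and CD4 T cells 58.7 and 64.3 CPM. The H2-DMb1 level of mature cells thus lay between these T cells in the male library and below both in the female library. H2-Aa differed least in the female library, 2.03-fold, and least in the male library too, 2.44-fold. Ciita was at 62.9 CPM (48 UMIs) and 23.4 CPM (9 UMIs), 2.88-fold and 6.93-fold lower.
Levels within the mature gate were uneven. The median male cell had 120 class II UMIs per 10000 and the median female cell 158, with 10th and 90th percentiles of 40.2 and 435 in males and of 66.3 and 534 in females. In type 2 dendritic cells the 10th and 90th percentiles were 461 and 827 in males and 447 and 769 in females, so these ranges overlapped in females and not in males. Single cells held up to 7.80% (male) and 11.5% (female) of the class II UMIs of the mature gate.

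The macrophage level of the male library was 1.20 times that of the female library (1.195 to 1.202), and at the 1.5-fold limit Ciita alone was called. That is 1 of 8 members, beside 7.16% of tested genes called male higher, and 0 of 8 were called female higher, beside 6.09%. Ciita had 1519 UMIs in male and 1067 in female macrophages, a ratio of 1.61 (1.49 to 1.75). The other 7 members had ratios between 1.11 for H2-Ab1 and 1.28 for Cd74. A Ciita UMI was seen in 33.3% of male and 23.7% of female macrophages, and in 5.89% and 4.29% after thinning to 1000 UMIs. Of 7 phagocyte genes, 2 were called male higher in the same macrophages, Lyz2 (1.76) and Apoe (1.70), while C1q had a ratio of 1.18, and their part in the result was not tested.

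The macrophages of the 2 hosts also differed in Arg1, which encodes arginase, an enzyme of tissue-remodelling macrophages. Ranges of Arg1 were set after the values had been seen. In the male library 50.05% of macrophages had no Arg1 UMI and 26.1% had more than 5 per 10000, while in the female library 6.69% had none and 83.4% had more than 5. Within each library Ciita was lower where Arg1 was high, at 32.5 CPM above 5 and 87.4 CPM with none in males, and at 35.2 and 82.3 CPM in females. Within an Arg1 range Ciita differed less between the hosts, and the summed level differed less only in the ranges with Arg1. Ciita's male over female ratio was 1.06 (0.784 to 1.47) without Arg1, 0.813 (0.689 to 0.960) with up to 5, and 0.923 (0.785 to 1.08) above 5. The summed class II ratio was 1.18 (1.17 to 1.20), 0.943 (0.937 to 0.949) and 1.01 (1.006 to 1.016) in the same ranges. Without Arg1 the summed ratio thus stayed near the 1.20 of all macrophages. Female macrophages without Arg1 were few, 179 cells with a median of 2116 UMIs against 9338 in 1071 male cells. In none of the 3 ranges was Ciita higher in the male library beyond counting error. Arg1 was 1 of several markers used to split macrophages. With at least 5 Cx3cr1 UMIs per 10000 the summed level was 38100 (male) and 24150 CPM (female), and with none 47097 and 37121 CPM. The former were 377 male and 71 female cells, with Ciita at 81.7 and 35.3 CPM against 65.3 and 40.0 CPM with none. The part of Arg1 or Cx3cr1 in the difference between hosts was not tested.

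**Figure D2:**
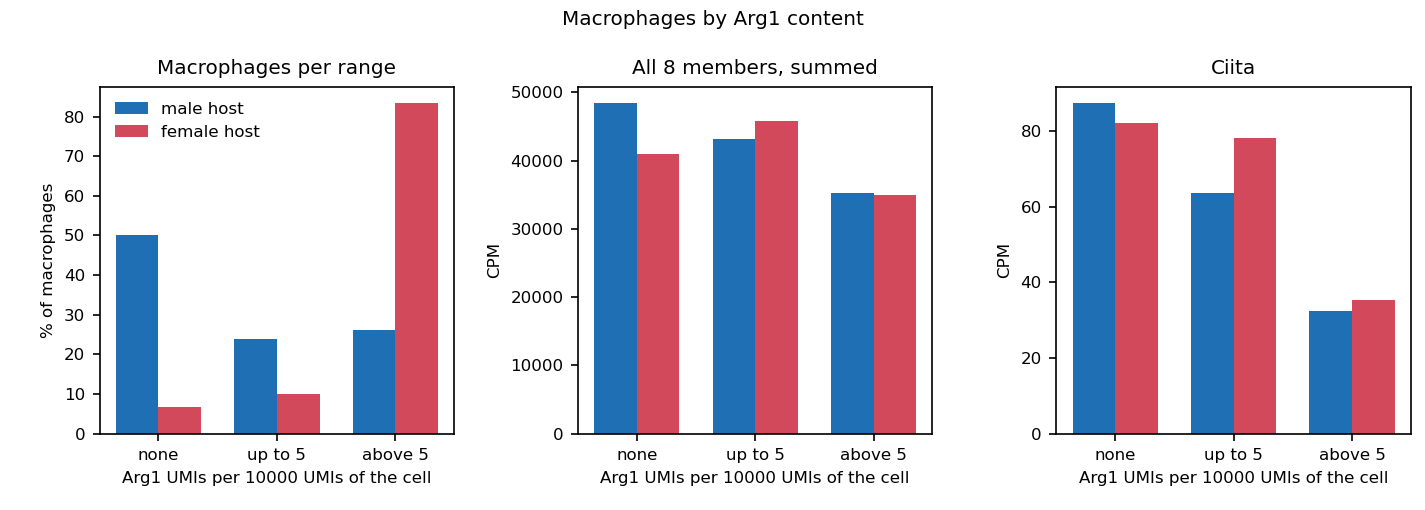
Macrophages of the male (blue) and female (red) CD45+ libraries split by Arg1 UMIs per 10000 UMIs of the cell: the left panel gives the percent of each library's macrophages, the middle panel the summed CPM of the 8 genes, the right panel the Ciita CPM, 1 library per bar. Female macrophages fall mostly above 5 (83.4%), where Ciita is lowest in both hosts (32.5 and 35.2 CPM).

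The 3 kinds of dendritic cell differed between hosts to different degrees. In type 2 dendritic cells the summed ratio of male over female was 1.02 (1.01 to 1.03), or 0.997 (log2 -0.0037) without Cd74, the 8 single ratios ran from 0.893 for H2-DMb1 to 1.12 for Ciita, and 0 of 8 reached 1.5-fold while 14.7% of tested genes did in either direction. In type 1 dendritic cells the summed ratio was 0.979 (0.958 to 1.00), and 1 of 8, H2-DMb2, was more than 1.5-fold higher in the female library, beside 12.2% of tested genes. In mature dendritic cells the summed ratio was 0.820 (0.7996 to 0.841), with 0 of 6 tested members beyond 1.5-fold in either direction beside 12.6% of tested genes. Ciita and H2-DMb1 had too few UMIs there to enter that count. Ciita's ratio of 2.69 (1.30 to 6.23) went against the sum, and that of H2-DMb1 was 1.31 (0.706 to 2.56). C1q in mature dendritic cells was at 510 (male) and 1122 CPM (female), close to the T cell level of each. In type 2 dendritic cells C1q was at 585 and 1064 CPM, and in type 1 dendritic cells at 583 and 1102 CPM. The part of free RNA in the summed ratios of the 3 kinds was not tested.

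**Figure D3:**
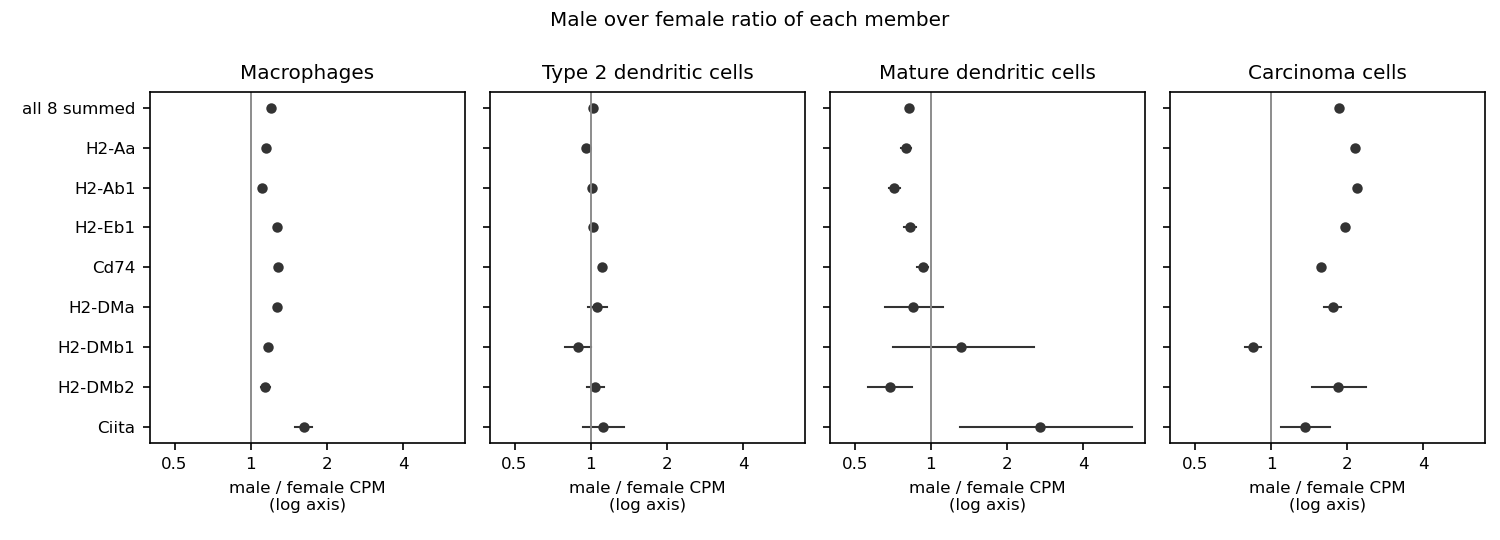
Male over female ratio of CPM (log axis) for the sum and for each of the 8 genes in 4 cell types; points are ratios of 1 library over 1 library and lines are exact conditional intervals of 95% for counting error. Ratios lie near 1 in type 2 dendritic cells, while in carcinoma cells 7 of 8 genes lie above 1 and H2-DMb1 lies at 0.850.

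In CD8 T, regulatory T and NK cells, whose class II was read as background, the female library was higher. Of 4 members with enough UMIs, 4 were called female higher in CD8 T cells (4.96% of tested genes), in NK cells (7.32%) and in regulatory T cells (8.57%). The C1q level of female CD8 T cells was 2.19 times that of male ones (1.93 to 2.48), and the class II sum 2.25 times (2.14 to 2.37). CD4 T cells differed from these, with 6829 CPM for male and 6634 CPM for female hosts and 0 of 5 members called female higher (5.22% of tested genes). Their median cell was nevertheless close to that of CD8 T cells, at 24.2 against 21.0 class II UMIs per 10000 in the male library and 49.2 against 49.0 in the female library.

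Carcinoma cells had low but measurable class II RNA, and it was higher in the male host's tumour. The 8 genes had 83060 UMIs in male and 31621 in female carcinoma cells, a ratio of 1.85 (1.83 to 1.87). At the 1.5-fold limit 6 of 8 members were called male higher, beside 7.27% of tested genes, and 0 of 8 female higher, beside 6.87%. The classical chains differed most: H2-Aa was at 366 against 171 CPM (ratio 2.15, 2.09 to 2.21), H2-Ab1 at 302 against 138 CPM (2.18, 2.12 to 2.25) and H2-Eb1 at 202 against 103 CPM (1.97, 1.90 to 2.04). Cd74 was at 440 against 278 CPM, a ratio of 1.58 (1.55 to 1.62). Of the DM genes, H2-DMa was at 35.6 against 20.3 CPM (1.75, 1.62 to 1.90) and H2-DMb2 at 4.06 against 2.20 CPM (1.85, 1.45 to 2.37). H2-DMb1 went the other way, with 27.0 CPM in male and 31.8 CPM in female hosts (0.850, 0.791 to 0.915). Ciita was at 4.07 against 2.98 CPM (1.37, 1.10 to 1.71), from 245 and 126 UMIs.

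The share of carcinoma cells with at least 1 class II UMI was 90.5% for male and 80.8% for female hosts, at median depths of 10844 and 11168 UMIs. Thinned to 1000 UMIs, the shares were 51.6% (50.2 to 53.1) and 35.8% (34.2 to 37.4). Fibroblasts of the same 2 libraries, at 8791 and 9773 UMIs, had 15.8% (3.38 to 39.6, 19 cells) and 14.5% (6.50 to 26.7, 55 cells) after the same thinning. The intervals of the carcinoma and fibroblast shares did not overlap within a host, and the part of free RNA in the carcinoma shares was not tested. The male over female ratio was above 1 in all 5 ranges of depth. It was 2.29 (1.97 to 2.67) in cells of 500 to 2500 UMIs, 2.53 (2.35 to 2.72) at 2500 to 5000, 2.61 (2.53 to 2.69) at 5000 to 10000, 1.78 (1.74 to 1.81) at 10000 to 20000 and 1.48 (1.45 to 1.52) above 20000, so it was smallest in the deepest cells.

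Genes of phagocytes were near 0 in the same carcinoma cells. C1q was at 2.49 CPM in male and 2.20 CPM in female carcinoma cells, and Ptprc was at 0.499 and 0.142 CPM. The C1q genes are markers of the macrophage gate, and the carcinoma gate capped such markers. Low C1q in carcinoma cells was therefore partly set by the gating. For each 1000 class II UMIs there were 1.81 and 2.94 C1q UMIs in carcinoma cells, against 264 and 267 in macrophages. H2-Ob, the DO beta chain, was at 121 to 207 CPM in type 1 and type 2 dendritic cells. It had no UMI in 4932 male and 3555 female carcinoma cells, where 3 UMIs would have given 0.0499 and 0.0709 CPM. H2-Oa, the DO alpha chain, was seen in carcinoma cells, with 60 UMIs (0.998 CPM) in male and 31 UMIs (0.732 CPM) in female hosts. The proportion of H2-Aa to H2-Ab1 differed from some presenting types as well. Male and female carcinoma cells had 1.22 and 1.24 H2-Aa UMIs for each H2-Ab1 UMI. Macrophages had 0.916 and 0.888, and type 2 dendritic cells 0.755 and 0.794. Mature dendritic cells, at 1.32 and 1.18, were close to carcinoma cells.

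Class II RNA was spread unevenly over carcinoma cells. The median cell had 6.33 class II UMIs per 10000 for male and 2.70 for female hosts, the 90th percentile was 41.0 and 20.3, and the 99th was 110 and 59.2. The tenth of cells with the most class II UMIs, not scaled by depth, held 47.8% of the class II UMIs for male and 54.0% for female hosts. Above 64 per 10000 there were 210 male cells (4.26%) and 25 female cells (0.703%). The 99th percentile of carcinoma cells lay below the 10th percentile of macrophages, at 122 (male) and 91.7 (female) per 10000. The distributions of the 2 hosts overlapped over the whole range, and the male one was shifted upward.

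Ciita was higher in carcinoma cells with more of the other 7 members. In cells ranked by the UMIs of those 7, male Ciita was at 2.51 CPM (7 UMIs) with none, then 1.02 CPM up to 4 per 10000, 3.15 CPM from 4 to 16, 8.77 CPM from 16 to 64 and 15.7 CPM (10.51 to 22.5) above 64. Female Ciita was at 0.795, 0.805, 2.88, 11.7 and 25.2 CPM (9.26 to 54.9) in the same ranges. Seen from Ciita, the 174 male carcinoma cells with a Ciita UMI had 3172 CPM of the other 7 members against 1296 CPM in the 4758 without. In the female library the 96 cells with a Ciita UMI had 2210 CPM against 691 CPM. Cells with a Ciita UMI were deeper, at medians of 13955 and 14354 UMIs against 10745 and 11047. C1q, which the carcinoma gate capped, stayed between 1.92 and 4.20 CPM over all ranges in both libraries, while Ptprc reached 5.41 CPM (10 UMIs) in the highest male range. H2-Oa and H2-Ob together were at 8.66 CPM (16 UMIs) in that range and at 4.20 CPM (1 UMI) in the highest female range.

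Interferon-gamma target genes were also higher in the cells with more class II. The summed CPM of 11 targets, such as the guanylate-binding proteins and the chemokines Cxcl9 and Cxcl10, was taken over the same ranges. In male cells it was 801 CPM with no UMI of the 7, 646 CPM above 0 to 4 per 10000 and 3412 CPM above 64. The female values were 862, 916 and 3422 CPM, so the rise was not steady in males. Between hosts the targets went against the class II genes. Summed over all carcinoma cells they were at 1230 CPM in male and 1462 CPM in female hosts, a ratio of 0.842 (0.833 to 0.851). Of 10 targets with enough UMIs, 0 were called male higher and 3 female higher (Cd274, Irgm1 and Iigp1), beside 6.87% of tested genes, and their median log2 ratio was -0.41 against 0.01 for all tested genes. Of 7 genes of interferon-gamma signalling, 1 was called, female higher: Irf1, the interferon-induced factor that acts at a Ciita promoter, was at 94.4 CPM in male and 146 CPM in female cells (0.647, 0.624 to 0.671).

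When carcinoma cells were split by their own level of the 11 targets, in ranges set after the values had been seen, summed class II was higher in the male library in every range. The summed ratio was 3.89 (3.54 to 4.27) in cells without a target UMI, 2.14 (2.08 to 2.21) with up to 4 per 10000, 1.96 (1.92 to 2.002) from 4 to 16 and 1.96 (1.92 to 2.002) above 16. The first range holds shallower cells, with medians of 4531 and 4118 UMIs. Above 16 per 10000 Ciita was at 13.9 CPM in male and 9.38 CPM in female cells (1.48, 1.14 to 1.92). H2-DMb1 was lower in the male library with up to 4 (0.842, 0.725 to 0.979) and from 4 to 16 (0.873, 0.773 to 0.986). It did not differ beyond counting error above 16 (1.01, 0.897 to 1.14) or without a target UMI (0.858, 0.546 to 1.36).

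**Figure D4:**
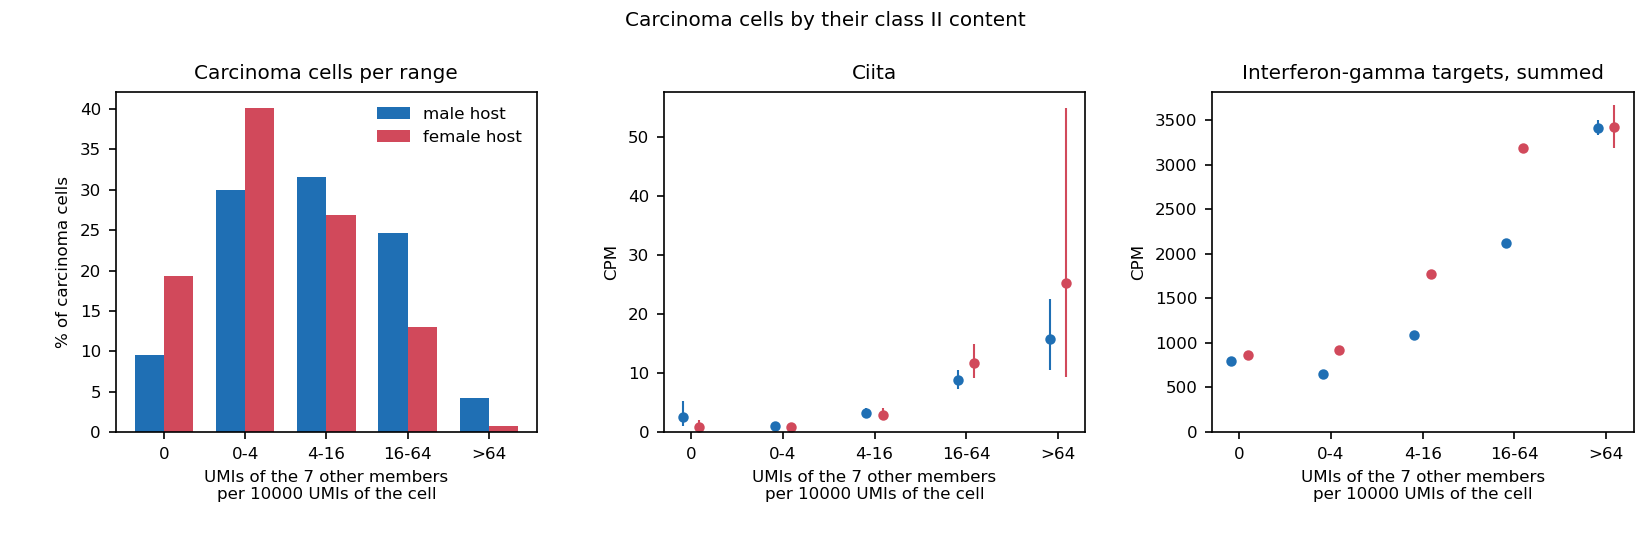
Carcinoma cells of the male (blue) and female (red) CD45- libraries grouped by UMIs of the 7 members other than Ciita per 10000 UMIs of the cell: percent of cells in each range, Ciita CPM and summed CPM of 11 interferon-gamma targets, with exact Poisson intervals of 95%. Ciita and the targets are highest above 64 in both hosts, and the ranges above 16 hold a larger share of male cells (24.7% and 4.22%) than of female cells (13.1% and 0.703%).

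The 2 DM beta genes were used in different proportions by different cell types. Of the UMIs of H2-DMb1 and H2-DMb2 together, H2-DMb1 made up 87.0% (85.3 to 88.4) in male and 93.5% (92.1 to 94.8) in female carcinoma cells and 70.7% (69.9 to 71.4) and 70.2% (69.4 to 71.0) in macrophages. It made up 59.6% (57.1 to 62.0) and 40.1% (32.6 to 48.0) in type 1 dendritic cells. In type 2 dendritic cells it was 26.1% (24.5 to 27.7) and 29.1% (26.9 to 31.5), and in mature dendritic cells 14.1% (10.2 to 18.7) and 7.94% (4.51 to 12.8). The mature cells' shares rest on 39 and 15 H2-DMb1 UMIs, a level not clear of that of T cells in either library. The order from carcinoma cell to mature dendritic cell was the same in both hosts, and the intervals of these 5 types did not overlap within a host. Monocytes, at 64.6% (54.4 to 74.0) and 80.1% (74.3 to 85.1), overlapped macrophages in the male library and lay above them in the female library. Fibroblasts had 1 (male) and 12 (female) UMIs of H2-DMb1 and none of H2-DMb2. The longest annotated transcripts of the 2 genes match at 94.6% of 1219 aligned bases, and their last 300 bases at 75.8% of 273 aligned bases. Reads that both genes could have produced may have been split or dropped by the counting, so the shares are uncertain in size.

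**Figure D5:**
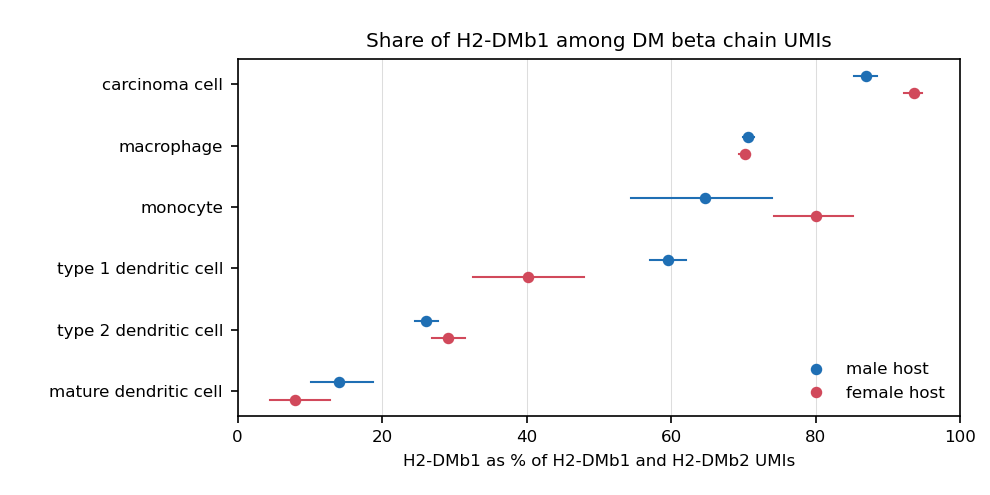
Percent of H2-DMb1 among the UMIs of H2-DMb1 and H2-DMb2 by cell type, male (blue) and female (red) host libraries, with exact binomial intervals of 95%. Of the types drawn, which leave out fibroblasts, carcinoma cells lie highest (87.0% and 93.5%) and mature dendritic cells lowest (14.1% and 7.94%).

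Relative to the I-A and I-E chains, the summed DM genes and Ciita were more frequent in carcinoma cells than in macrophages. For each 1000 UMIs of H2-Aa, H2-Ab1 and H2-Eb1 there were 76.6 DM UMIs (74.3 to 79.0) in male and 132 (127 to 137) in female carcinoma cells, against 47.1 and 45.0 in macrophages. Fibroblasts had 150 (30.9 to 438, from 3 UMIs) and 147 (80.6 to 247, from 14 UMIs), so the high DM value was not particular to carcinoma cells. H2-DMb2 by itself did not share this, with 4.66 (4.10 to 5.29) and 5.34 (4.31 to 6.54) per 1000 in carcinoma cells and 6.17 (5.99 to 6.36) and 6.31 (6.12 to 6.50) in macrophages, a lower value in the male hosts' carcinoma cells and overlapping intervals for the female hosts. Cd74 had 506 and 676 UMIs per 1000 in carcinoma cells against 402 and 367 in macrophages. Ciita had 4.68 (4.11 to 5.31) and 7.23 (6.03 to 8.61) per 1000 in carcinoma cells, 2.20 (2.09 to 2.31) and 1.59 (1.497 to 1.69) in macrophages, and 4.10 (3.69 to 4.54) and 3.65 (3.11 to 4.25) in type 2 dendritic cells. UMIs here come from the 3' end and are not scaled by length, so these proportions are compared between cell types and not between genes.

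Other genes of the pathway were read list by list. The counts between hosts stand beside 7.16% (male higher) and 6.09% (female higher) of all tested genes in macrophages, and 7.27% and 6.87% in carcinoma cells. Among the other class II chains, H2-Oa and H2-Ob encode DO, a restraint on DM. H2-Ob was at 207 and 121 CPM in type 2 dendritic cells and at 12.5 and 8.48 CPM in macrophages. H2-Eb2, a little-studied beta chain, was highest in mature dendritic cells, at 148 CPM (113 UMIs, male) and 85.9 CPM (33 UMIs, female) against 13.0 and 6.89 CPM in type 2 dendritic cells, the reverse of the 8 members. The factors that recruit Ciita (Rfx5, Rfxap, Rfxank, the 3 NF-Y subunits and Creb1) gave 0 of 6 calls in macrophages and 0 of 7 in carcinoma cells, with median log2 ratios of 0.11 and -0.02. Rfx5 had too few UMIs in macrophages to enter the count (58 male and 24 female), and its ratio there was 2.74 (1.68 to 4.61). For class II antigen processing, 1 of 7 genes was called in macrophages, the protease Ctsl, lower in the male library (397 against 982 CPM). In carcinoma cells 2 of 7 were called: Ctss, which trims the invariant chain, was higher in male hosts (10.9 against 6.02 CPM) and Ctsl was lower (348 against 574 CPM). For turnover and costimulation, Cd83, which protects surface class II, was the 1 of 6 genes called in macrophages, at 684 against 327 CPM. In carcinoma cells 1 of 3 was called, Cd80, a ligand of the T cell receptor CD28, lower in male hosts (5.84 against 15.97 CPM). Of the regulators of Ciita, 0 of 4 were called in macrophages and 2 of 3 in carcinoma cells. These were Spib, higher in male hosts (11.1 against 6.001 CPM), and Prdm1, a repressor of Ciita, lower (1.65 against 2.62 CPM). In type 2 dendritic cells 3 of 7 processing genes were called female higher (7.46% of tested genes), Ctsl, Ctsd and Lgmn with ratios of 0.283, 0.462 and 0.486, and 0 male higher (7.29%). Of the interferon-gamma targets, 7 of 11 were called male higher in macrophages and 0 female higher, with a median log2 ratio of 0.72 against -0.01 for all tested genes. They included Cxcl9 (1764 against 628 CPM) and Cxcl10 (189 against 65.2 CPM).

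Over 24 combinations of cell type and library with at least 30 cells, 14864 genes were ranked by how closely their log2(CPM + 1) followed the summed class II level. The closest 10 were Dcstamp (Pearson r = 0.964), Tbc1d9 (0.961), Ifi30 (0.957), Gm6377 (0.950), Spint1 (0.944), Pld4 (0.940), Irf5 (0.939), Ly86 (0.934), Aph1c (0.934) and Plbd1 (0.930). The combinations share 4 libraries and their free RNA, so these are descriptions and carry no test. Among the members themselves r with the sum was lowest for H2-DMb1 (0.829) and Ciita (0.867) and at least 0.953 for the others. Each member is part of that sum, and the classical chains and Cd74 make up most of it, so their high r is built in. Over the 21 CD45+ combinations alone Ciita was lowest (0.871) and H2-DMb1 was at 0.901. Ifi30 encodes the reductase that unfolds antigen for class II loading.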

How the data were processed

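The authors deposited 1 matrix per library of UMI counts, whole numbers that were not scaled, from BD Rhapsody whole-transcriptome libraries per the labels' protocols. Named in the submitters' processing notes are CASAVA 1.8, UMI-tools, Seurat and mm10. Aligner and cell calling: not given in the sources used here.

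A cell was kept with 500 or more UMIs, 250 or more genes and no more than 25% mitochondrial UMIs. Total counts per library ran from 37705608 to 62273035. Types were set by marker gates without the 8 members, tuned on the marker distributions. No doublet caller was run, and cells that met several gates were left out. Counts were summed per type and library and divided by all UMIs of those cells (CPM). Genes with at least 100 UMIs in the pair compared were tested against a limit of 1.5-fold between hosts or 2-fold between types. Intervals of 95% are exact (Poisson, Clopper-Pearson, and conditional for ratios) and cover counting error only. The members, lists and ranges were chosen with earlier results of these data known. Named genes are the 8 members, list genes with the most UMIs or the most extreme ratios, and the 10 closest genes. Ratio code was tested on simulated data. Python 3.11.15, numpy 2.4.6, scipy 1.17.1, pandas 2.3.3 and Biopython were used.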

Additional observations from a re-analysis of the deposited data

Results flagged for a closer look

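The male over female ratio of summed class II went in opposite directions in different cell types, a difference between types that was not tested because each host gave 1 library per fraction. It was above 1 beyond counting error in carcinoma cells (1.85), monocytes (1.32), macrophages (1.20) and type 2 dendritic cells (1.02), the last of which was 0.997 without Cd74. It was below 1 in mature dendritic cells (0.820), neutrophils (0.813), NK cells (0.532), CD8 T cells (0.445) and regulatory T cells (0.280). The last value rests on 51 female cells, 1 of which held 16.3% of their class II UMIs. C1q, which marks free phagocyte RNA there, had ratios of 0.552 in neutrophils, 0.440 in NK cells, 0.457 in CD8 T cells, 0.448 in regulatory T cells and 0.455 in mature dendritic cells, and its part was not tested. In type 2 dendritic cells, whose class II ratio was near 1, the C1q ratio was 0.550.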

How the results depend on the processing

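Of 57 alternative values, 31 kept their direction and stayed within the counting interval, 25 moved beyond it and 1 reversed. Of the 31, the 2 carcinoma shares with a minimum of 1000 UMIs could not differ, because thinning already set that minimum. On the log2 scale the male over female value of carcinoma cells (0.8868) became 0.9433 without the 5% deepest cells, 1.0471 as a mean over cells, 1.005 without Cd74 and 0.828 in cells of 10000 to 20000 UMIs. That of macrophages (0.2613) became 0.2793 with a stricter gate, 0.27 with median-ratio scaling, 0.2269 without Cd74, 0.2406 in cells without Arg1 and 0.0154 in cells above 5 Arg1 UMIs per 10000. The depth range and the Arg1 restrictions were chosen after seeing the data. Type 2 dendritic cells (0.0317) reversed to -0.0037 without Cd74, and gave 0.0485 with a stricter gate, 0.0608 as a mean over cells and 0.067 with median-ratio scaling. Mature dendritic cells (-0.2866) gave -0.3235 with a stricter gate, -0.3656 without the deepest cells, -0.3886 as a mean over cells and -0.3536 without Cd74. Type 1 dendritic cells (-0.0308) gave -0.1572 with a stricter gate that left 6 female cells, -0.0658 with median-ratio scaling and -0.0794 without Cd74. The share of carcinoma cells with a class II UMI became 66.7% (male) and 50.5% (female) when thinned to 2000 UMIs, 90.5% and 80.8% without thinning, and 30.8% and 16.5% for at least 2 UMIs. The cause of these shifts was not tested. No paired analysis was possible because each group holds 1 library, and no replicate could be left out. Depth limited Ciita and H2-DMb1 in mature dendritic cells, with 9 and 15 UMIs in the female library.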

Other observations

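Monocytes, gated on Ly6c2 and Ccr2, ranged from near the T cell level to the macrophage level. The 49 male monocytes had a median of 36.5 class II UMIs per 10000 but a 75th percentile of 365, and the 130 female monocytes had 68.8 and 325. Their summed levels of 24627 and 18640 CPM therefore average over unlike cells, and single cells held up to 11.9% and 5.17% of the UMIs. Ciita had 4 and 22 UMIs in them.

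Plasmacytoid dendritic cells were few, 13 male and 18 female cells, with 23453 and 14601 CPM. In the male library 1 cell held 42.9% of those UMIs. B cells, another class II expressing type, numbered 2 and 1.

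In endothelial cells the sum was 243 CPM (14 UMIs in 11 male cells) and 438 CPM (40 UMIs in 14 female cells), too few to compare the hosts.

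Macrophages with at least 5 Cxcl9 UMIs per 10000 had more class II than those with none in both libraries, at 46484 against 40735 CPM in males and 41363 against 34365 CPM in females.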
